A study of Homo sapiens with 64 samples.

Results

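Expression of 32 genes for cytosolic and mitochondrial chaperones was compared between label-retaining cells (LRCs) and the remaining cells of colorectal cancer spheroids. The genes were chosen by name from 54127 Ensembl genes in each count table, and all 32 were found. They were grouped by role into HSP70 and HSP110 (HSPA1A, HSPA1B, HSPA8, HSPA4, HSPA4L, HSPH1), HSP90 (HSP90AA1, HSP90AB1), the small heat shock protein HSPB1 with BAG3, J proteins (DNAJA1, DNAJA2, DNAJB1, DNAJB4, DNAJB6) and mitochondrial chaperones (HSPA9, HSPD1, HSPE1). The other groups were the TRiC chaperonin (TCP1, CCT2, CCT3, CCT4, CCT5, CCT7, CCT8), HSP90 co-chaperones (STIP1, CHORDC1, AHSA1, FKBP4, PTGES3, CDC37) and the regulator HSF1.

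Chaperones bind unfolded protein and, in most cases, use ATP to help it fold. HSP70 proteins take clients from J proteins, which trigger ATP hydrolysis, and release them with the help of exchange factors such as the HSP110 proteins and BAG3. HSP90 finishes the folding of kinases and receptors handed over by STIP1. TRiC is a double ring that folds actin and tubulin, and HSPD1 with its lid HSPE1 forms the analogous chamber in mitochondria. Under heat or protein damage, HSF1 binds heat shock elements upstream of many of these genes, which are repeats of the letters GAA and their reverse complement TTC. Many tumors carry high levels of chaperones, and several of them also follow cell growth.

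The study asked how dormant cells differ from cycling cells. Spheroids of 6 colorectal cancer cell lines (HT55, SW948, RKO, SW48, DLD1 and HCT15) were labeled with CFSE, a dye that couples to proteins and is diluted at each division, and were grown without attachment for 6 days. Cells were then sorted by flow cytometry into LRCs, with high CFSE, and non-LRCs, the bulk of the CFSE signal. Each line gave 4 LRC and 4 non-LRC libraries, so that every sorted library carried the dye and passed a sorter. A further 16 unsorted libraries labelled DLD1 were CFSE-labeled or unlabeled cells at day 1 or day 6 after seeding, with 4 in each group, and tested the effects of the dye and the culture. The later day is written as day 5 in the sample labels. Each line is a single established line, the populations were pools of many cells, and the study's methods call the experiments biological quadruplicates. The labels do not name the cultures the replicates came from, so p-values measure the spread between these libraries.

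Each of the 64 libraries held 12237225 to 20913455 reads counted to genes (median 15063858). The chaperone genes took 0.914 to 2.07% of them, and mitochondrially encoded genes took 2.6 to 14.2%. RKO lacked its epithelial markers, with a mean of 16.1 CPM (read counts scaled to library size) for EPCAM and 0.944 for CDH1, whereas the summed level of 8 epithelial markers was 2530 to 14700 CPM in the other lines. Among leukocyte markers, CD3E was at 0 everywhere and PTPRC at or near 0 outside SW48 (13.9 CPM of PTPRC), but CD68, also a lysosomal protein, had a mean of 1140 CPM in RKO and 7.68 to 59.8 CPM in the other lines. In bulk libraries, fewer cells of a type and less RNA per cell cannot be told apart.

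The line labels of the unsorted and sorted libraries disagreed by expression, and these values do not show which of them is wrong. All 16 unsorted libraries labelled DLD1 lay closest to the sorted HCT15 libraries (r = 0.951 to 0.992 across genes) and farther from the sorted DLD1 libraries (0.915 to 0.956). MUC5AC, a mucin, reached 74.7 to 108 CPM in sorted DLD1, 0 to 0.576 in the unsorted libraries and 0 to 0.119 in sorted HCT15. All 48 sorted libraries lay closest to the other libraries labelled with their own line, which cannot show whether whole lines had exchanged labels. The library labelled unlabeled day 1 replicate 4 lay nearer to unlabeled day 6 (0.983 to 0.993) than to its own group (0.972 to 0.979), so counts for comparisons of unlabeled day 1 cells are given with and without it.

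Sequences before the annotated transcription starts were read from RefSeq (GRCh38.p14), where 30 of the 32 genes had an annotated start. The 250 bases before each start were searched on both strands for the 2-unit forms GAANNTTC and TTCNNGAA, where N is any base, and for the 3-unit heat shock element that overlapping 2-unit forms make, in which GAA and TTC alternate 3 times at the same spacing. A 3-unit match was present for 6 of the 30 genes (20%), against 0.557% of 27305 genes, and a 2-unit match for 15 (50%), against 14%. The 6 were HSPA8, HSP90AA1, HSP90AB1, DNAJB6, HSPD1 and CHORDC1, and none of the 7 TRiC genes had one. Genes can have several starts, and 16 of the 43 windows searched lay wholly or partly inside the span RefSeq gives for the gene. Of the 6 genes, only DNAJB6 and CHORDC1 had their match in a window outside that span. The single CCT5 window lay inside it, so the sequence before the outer end of CCT5 was not searched. Because the genes were chosen as chaperones, these shares describe the set. The first 3 sequences are shown for their 3-unit matches, the next 2 for the inducible HSP70 and J protein genes that the comparisons turn on, and the last as a TRiC gene with no match in a window outside its span. The HSPA8 window and those of the second starts lie inside the span. Capitals mark the 2-unit and 3-unit matches, and each runs 5′ to 3′ on the strand of its gene.
HSPA8, chr11:123062137-123062386, minus strand: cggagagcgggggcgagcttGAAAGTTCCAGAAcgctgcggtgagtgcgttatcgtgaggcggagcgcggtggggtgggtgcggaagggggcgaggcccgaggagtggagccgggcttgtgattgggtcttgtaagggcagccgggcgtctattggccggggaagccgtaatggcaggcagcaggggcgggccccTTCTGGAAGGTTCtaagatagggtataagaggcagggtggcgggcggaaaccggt
CHORDC1, chr11:90223050-90223299, minus strand: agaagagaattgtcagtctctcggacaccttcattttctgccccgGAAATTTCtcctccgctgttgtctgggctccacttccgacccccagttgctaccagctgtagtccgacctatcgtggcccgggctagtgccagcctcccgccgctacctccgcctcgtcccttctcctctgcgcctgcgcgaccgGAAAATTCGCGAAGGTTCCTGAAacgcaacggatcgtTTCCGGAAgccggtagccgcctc
HSPD1, second start, chr2:197499841-197500090, minus strand: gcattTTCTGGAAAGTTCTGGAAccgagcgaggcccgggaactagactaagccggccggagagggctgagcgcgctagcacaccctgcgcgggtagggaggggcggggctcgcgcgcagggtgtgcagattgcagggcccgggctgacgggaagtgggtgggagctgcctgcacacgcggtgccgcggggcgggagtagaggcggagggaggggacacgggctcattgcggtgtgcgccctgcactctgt
HSPA1B, chr6:31827488-31827737, plus strand: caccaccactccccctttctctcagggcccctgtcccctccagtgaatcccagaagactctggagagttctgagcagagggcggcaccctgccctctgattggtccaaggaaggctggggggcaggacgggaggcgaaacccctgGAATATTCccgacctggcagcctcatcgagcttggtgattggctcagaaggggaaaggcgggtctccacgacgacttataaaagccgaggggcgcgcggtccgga
DNAJB1, second start, chr19:14518398-14518647, minus strand: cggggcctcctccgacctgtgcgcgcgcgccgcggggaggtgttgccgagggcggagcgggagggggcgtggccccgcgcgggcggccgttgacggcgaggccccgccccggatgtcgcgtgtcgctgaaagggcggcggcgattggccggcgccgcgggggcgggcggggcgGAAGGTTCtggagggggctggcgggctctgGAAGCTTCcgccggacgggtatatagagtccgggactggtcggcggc
CCT7, chr2:73234058-73234307, plus strand: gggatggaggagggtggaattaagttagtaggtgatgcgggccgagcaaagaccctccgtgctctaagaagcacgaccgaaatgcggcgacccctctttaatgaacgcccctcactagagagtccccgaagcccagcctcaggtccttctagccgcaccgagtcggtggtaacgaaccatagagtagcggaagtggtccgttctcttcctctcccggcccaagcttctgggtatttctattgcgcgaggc
HSPA8 held 2 such 3-unit matches, CHORDC1 held 3 overlapping ones and HSPD1 held 2 overlapping ones at its second start. HSPA1B held a single 2-unit match, GAATATTC, and DNAJB1 held 2 separate 2-unit matches. A match describes letters in this window and not a site that is bound.

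Chaperone genes differed widely in level before any comparison of populations. Per kilobase of exon, the mean level over the 6 lines of non-LRCs was highest for HSP90AB1 (761 CPM per kilobase), the constitutive HSP90, followed by HSPA8 (468), the constitutive HSP70, and HSP90AA1 (372), the inducible HSP90. TRiC genes lay between 59.2 for CCT5 and 139 for CCT4, and the mitochondrial pair had 125 for HSPD1 and 56.9 for HSPE1. The lowest were HSPA1A (2.31), DNAJB4 (3.05), CHORDC1 (3.24) and HSPA4L (3.31). HSPA1A and HSPA1B encode nearly the same protein, and 73.7% of the 50-base stretches of HSPA1A were shared with other genes, chiefly HSPA1B, so the split of reads between them is uncertain and their sum is used where it matters. Shares of 16.6% for HSP90AB1, 11.6% for HSP90AA1 and 8.23% for HSPA8 were mostly with pseudogenes, and HSPE1 shared 12.6%, chiefly with its readthrough gene HSPE1-MOB4.

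The lines differed in every one of the 32 genes among non-LRCs, as did 98.3% of all genes tested. HSPA4L, a testis-enriched HSP110 protein, spanned the widest range, from 1.11 ± 0.316 CPM in HT55 (SD, n = 4) to 80.3 ± 7.94 CPM in RKO (SD, n = 4). HSPB1 ranged from 43.9 ± 9.74 CPM in HT55 to 349 ± 42.4 in RKO, with DLD1 (341 ± 9.38) within 1 SD of RKO. HSPH1, another HSP110 protein, ran the other way, from 89.8 ± 2.25 CPM in RKO to 404 ± 10.7 in SW948. TCP1, a TRiC subunit, was the most even, from 284 ± 5.26 CPM in HCT15 to 345 ± 12.4 in HT55. RKO had the highest mean for 19 of the 32 genes, a count that was not made over all genes.

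**Figure D1:**
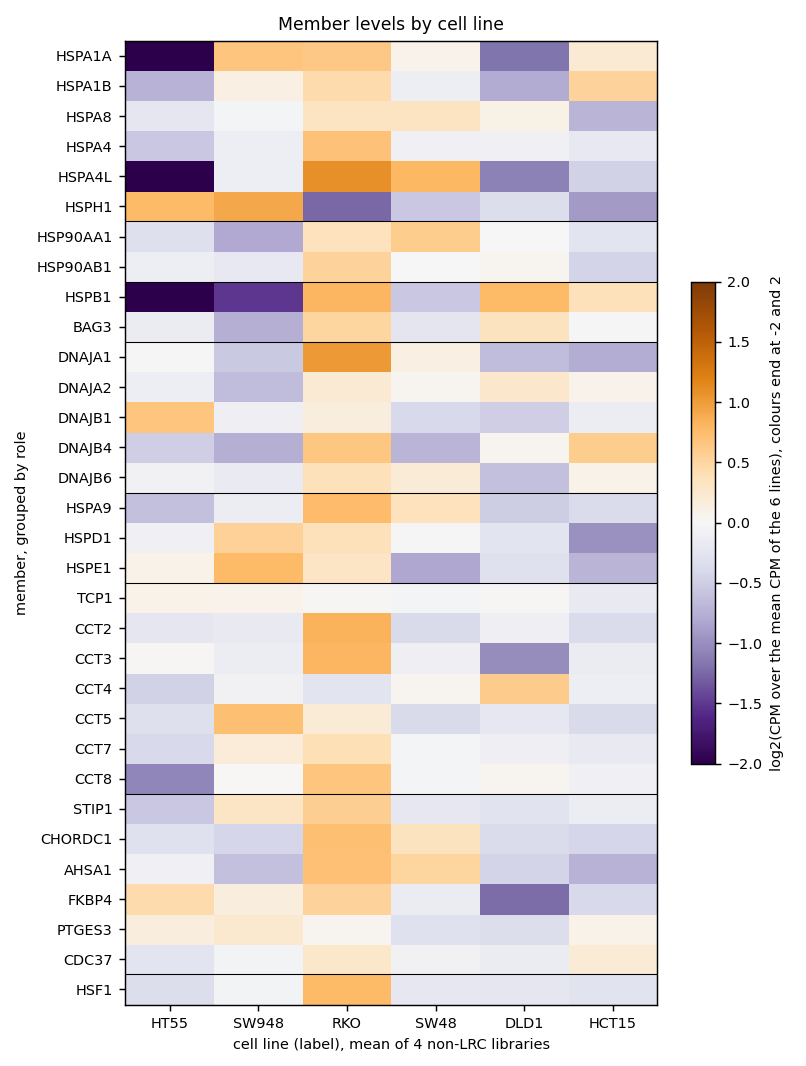
Log2 of the mean CPM of 4 non-LRC libraries over the mean of the 6 lines, for 32 chaperone genes (vertical, grouped by role) in 6 lines (horizontal), with colours ending at -2 and 2. RKO was above the mean for most genes and below it for HSPH1, and HT55 was lowest for HSPA4L (1.11 CPM) and HSPB1 (43.9 CPM).

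Across the 6 lines, with line as a covariate, 8 of the 32 chaperone genes differed between LRCs and non-LRCs (25%, against 22.9% of the 16603 genes tested), a share near that of all genes. By direction, 3 were higher (12.2% of all genes) and 5 were lower (10.7%). The split depended on the scaling, with 2 higher and 9 lower without TMM factors and 5 higher and 5 lower with median-of-ratios factors. The J proteins DNAJB4 and DNAJB1 and the HSP110 gene HSPH1 rose in LRCs. The TRiC genes CCT2, CCT5 and CCT7 and the mitochondrial pair HSPE1 and HSPD1 fell. The log2 differences ran from -0.20 for CCT2 to 0.34 for DNAJB4, and the median over the 32 genes was -0.055, against 0.015 over all genes. These calls came from edgeR's quasi-likelihood test with Benjamini-Hochberg adjustment. Same-numbered libraries deviated together in 4 of the 6 lines, and with the replicate number as a block 5 genes were higher and 5 lower, against 25.5% of genes tested. Of 10 proliferation markers, 5 fell in LRCs and none rose, with a summed level of 556 to 2720 CPM (median 1210) in LRCs and 653 to 2410 (median 1610) in non-LRCs, and their part in the result was not tested.

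Among J proteins, DNAJB4 (ENSG00000162616, chr1:78444859-78483648 on GRCh37), which delivers clients to HSP70, had 5.11 to 20.4 CPM in the 24 non-LRC libraries (median 9.81). It had 5.67 to 25.9 CPM in the 24 LRC libraries (median 12.7). LRCs were higher in 22 of the 24 pairs of same-numbered libraries, and the rise was 0.34 in log2 (SE 0.07, adjusted p = 0.000125). By line, DNAJB4 had 6.98, 6.41, 7.08 and 6.24 CPM in SW948 non-LRCs and 11.5, 11.3, 9.81 and 7.3 CPM in SW948 LRCs, without overlap. In HT55 the values overlapped, with 9.12, 7, 7.22 and 8.92 CPM in non-LRCs against 5.67, 8.89, 8.36 and 6.48 CPM in LRCs. It remained called when any replicate number or any line was left out. DNAJB1, the heat-inducible partner of HSP70 (130 to 344 CPM in non-LRCs, median 190, and 161 to 367 CPM in LRCs, median 206), rose by 0.15 (SE 0.04, adjusted p = 0.00817) and was higher in 19 of 24 pairs. Without DLD1 its call was lost (0.13, adjusted p = 0.0703). DNAJA1 (0.11, adjusted p = 0.0592), DNAJB6 (0.04) and DNAJA2 (-0.02) did not pass the test, although DNAJA1 did with the replicate block (adjusted p = 0.0263).

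In the HSP70 and HSP110 group, HSPH1 (88.6 to 412 CPM in non-LRCs, median 150, and 79 to 491 CPM in LRCs, median 158) was higher in LRCs by 0.12 (SE 0.04, adjusted p = 0.0463). This call was lost when any replicate number was left out (adjusted p up to 0.261), and also without SW948 (0.167), RKO (0.0712), SW48 (0.104) or HCT15 (0.361) or with the replicate block (0.0531). With the block HSPA1B (adjusted p = 0.0426) and BAG3 (0.0463) passed. HSPA1A differed by 0.12 and HSPA1B by 0.14 (adjusted p = 0.41 and 0.172), and their sum by 0.14 (adjusted p = 0.174). HSPA8, HSPA4 and HSPA4L differed by -0.05, -0.06 and 0.09, none of them passing. The small heat shock protein HSPB1 differed by -0.03, and BAG3, which links HSPB1 to HSP70, by 0.11 (adjusted p = 0.053). HSP90AA1 and HSP90AB1 differed by 0.03 and -0.06. Without RKO, DNAJA1 (0.18, adjusted p = 0.00663) and BAG3 (0.15, adjusted p = 0.0207) passed, BAG3 also without replicate 2, replicate 4 or SW48 (adjusted p = 0.0395 to 0.0494), and without HCT15 HSPA1B did (0.22, adjusted p = 0.00861). HSPA4 passed without SW48 (-0.10, adjusted p = 0.0386).

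In mitochondria, HSPE1 (ENSG00000115541, chr2:198364864-198368173 on GRCh37), the lid of the chaperonin, had 54.3 to 192 CPM in non-LRCs (median 95) and 56.4 to 184 CPM in LRCs (median 74.4). It fell by 0.19 (SE 0.04, adjusted p = 0.000688) and was lower in 20 of 24 pairs. HSPD1, the chamber itself, fell by 0.11 (SE 0.04, adjusted p = 0.028), a call that was lost without replicate 1 (0.137), replicate 3 (0.182), replicate 4 (0.0565), SW948 (0.0684), RKO (0.208) or DLD1 (0.219). HSPA9, the mitochondrial HSP70, differed by -0.06 (adjusted p = 0.385), and passed without HCT15 (-0.14, adjusted p = 0.0104). HSPD1 and HSPE1 lie head to head and their annotated spans overlap on opposite strands, and the use of strand in counting is not given in the sources used here.

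All 7 TRiC genes lay below 0 in LRCs over the 6 lines, and 3 of them passed. This sign depended on the lines. Without RKO, TCP1 lay above 0, as did the co-chaperones STIP1 and CHORDC1. In HCT15 alone TCP1 (0.16), CCT3 (0.01), CCT4 (0.07), CCT5 (0.06) and CCT8 (0.09) lay above 0, and CCT2 and CCT7 below it. CCT2 (ENSG00000166226, chr12:69979206-69995350) had 237 to 593 CPM in non-LRCs (median 284) and 222 to 403 CPM in LRCs (median 254). It fell by 0.20 (SE 0.04, adjusted p = 9.14e-05) and was lower in 20 of 24 pairs. CCT5 (ENSG00000150753, chr5:10250041-10266501) fell by 0.19 (SE 0.04, adjusted p = 0.000209) and was lower in 18 pairs. CCT7 fell by 0.12 (SE 0.03, adjusted p = 0.00825), and its call was lost without RKO (-0.07, adjusted p = 0.163) and without replicate 4 (adjusted p = 0.0578). TCP1, CCT3, CCT4 and CCT8 differed by -0.04, -0.07, -0.07 and -0.09, and CCT8 passed without SW48 or HCT15 (adjusted p = 0.0342 and 0.0221). The 6 HSP90 co-chaperones also lay below 0 and none passed, with values of -0.07 for STIP1, -0.01 for CHORDC1, -0.05 for AHSA1, -0.10 for FKBP4, -0.11 for PTGES3 and -0.09 for CDC37. Leaving out a line or replicate brought 3 of them past the threshold, namely FKBP4 without HT55 or HCT15, PTGES3 without HT55, SW948, SW48 or replicate 2, and CDC37 without DLD1 (adjusted p = 0.0204 to 0.0482). HSF1, the transcription factor, differed by -0.07 (adjusted p = 0.182).

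**Figure D2:**
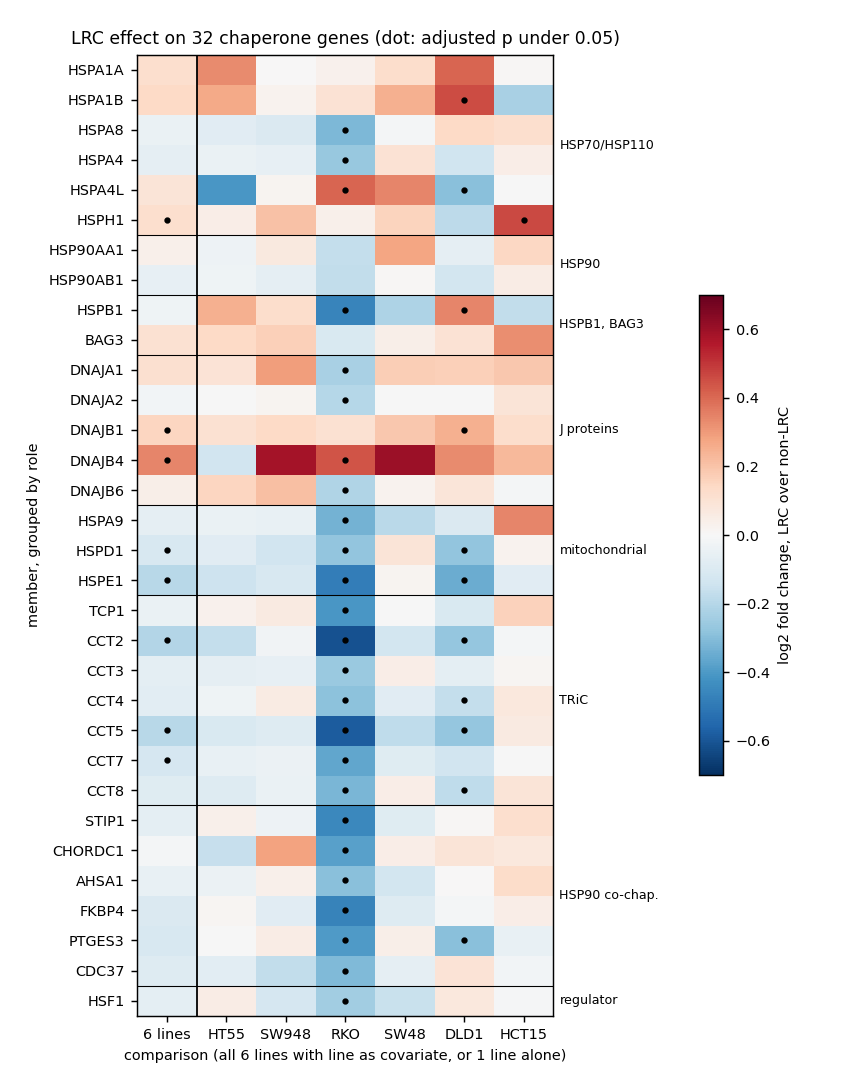
Log2 fold change of LRCs over non-LRCs for 32 chaperone genes grouped by role (vertical), over 6 lines together and in each line alone (horizontal), with dots where the adjusted p was below 0.05. RKO held 25 of the dots of the single lines and DLD1 held 11, while HT55, SW948 and SW48 held none.

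**Figure D3:**
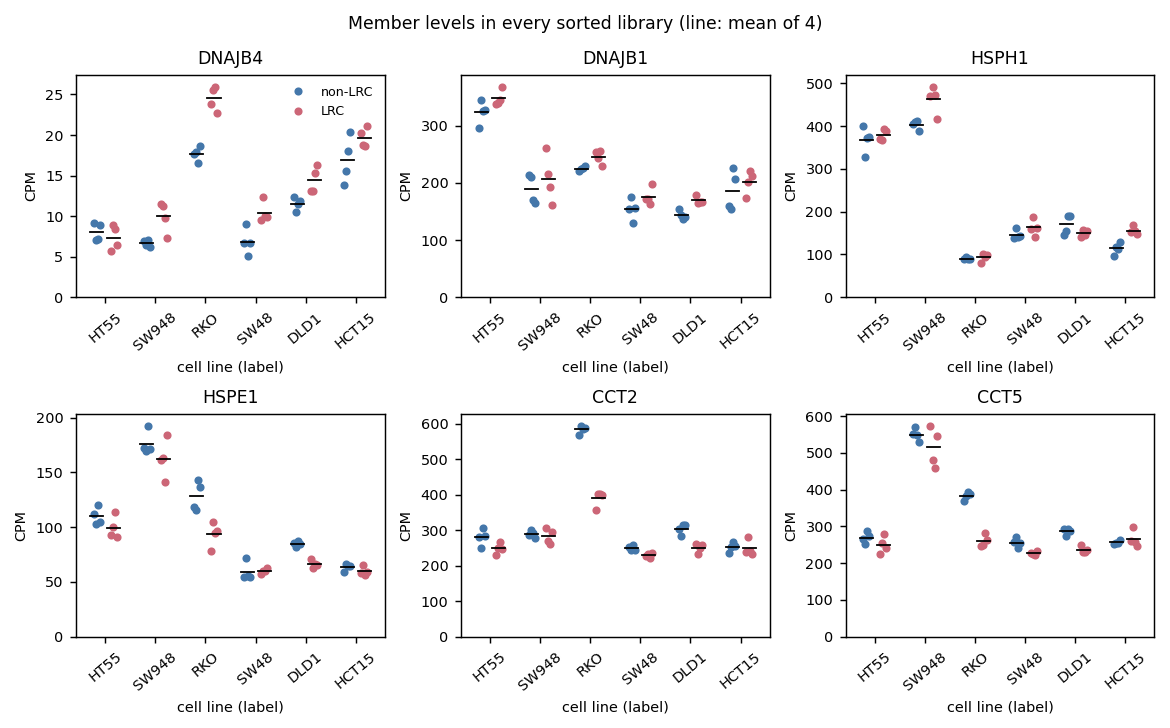
CPM of 6 chaperone genes in every sorted library by line, with non-LRCs in blue, LRCs in red and a bar at the mean of 4. DNAJB4 was higher in LRCs without overlap in SW948, RKO, SW48 and DLD1, and CCT2 was lower without overlap in RKO, SW48 and DLD1.

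The chaperone genes did not respond alike in all lines. The difference between LRCs and non-LRCs itself differed between lines for 13 of the 32 genes, against 14.3% of all genes tested. With the replicate block it did for 24, against 33.6%. The smallest adjusted p-values were those of CCT2 (0.000127), CCT5 (0.00018), TCP1 (0.000202), HSPA4L (0.00103), STIP1 (0.00121), which hands clients from HSP70 to HSP90, and HSPH1 (0.00606). DNAJB4 (0.0634) and DNAJB1 (0.977) did not pass this test. Without RKO only HSPH1 did (adjusted p = 0.034, with 1.02% of genes tested). The count also fell to 4 without replicate 1 (3.2% of genes tested), to 6 without replicate 3 (4.88%) and to 5 without replicate 4 (5.4%).

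In RKO, the line nearly without epithelial markers, 25 of the 32 genes differed (78.1%, against 41.5% of genes tested), 23 of them lower in LRCs (21% of all genes) and 2 higher (20.4%). The median over the 32 genes was -0.281, against 0.008 over all genes, and the genes took 1.38 to 1.5% of reads in LRCs and 1.71 to 1.77% in non-LRCs. All 7 TRiC genes, all 3 mitochondrial genes and all 6 HSP90 co-chaperones fell, as did HSF1, HSPA8, HSPA4 and HSPB1. The J proteins DNAJA1 (-0.23), DNAJA2 (-0.20) and DNAJB6 (-0.21) fell too. HSPA4L and DNAJB4 rose. The 2 HSP90 genes, HSPA1A, HSPA1B, HSPH1, BAG3 and DNAJB1 did not pass.

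In RKO, CCT2 had 570, 593, 587 and 588 CPM in non-LRCs and 357, 403, 402 and 399 CPM in LRCs. The groups were far apart, and CCT2 fell by 0.61 (SE 0.07, adjusted p = 7.59e-06). CCT5 fell by 0.58 (SE 0.07, adjusted p = 1.09e-05), from 369, 382, 394 and 388 CPM to 246, 250, 282 and 264 CPM. TCP1, the founding TRiC subunit, had 329, 327, 332 and 332 CPM in non-LRCs and 244, 266, 254 and 249 CPM in LRCs, and fell by 0.41 (SE 0.06, adjusted p = 0.000132). No LRC value of these 3 subunits reached the lowest non-LRC value. FKBP4, an immunophilin that binds HSP90, fell by 0.47 (SE 0.07, adjusted p = 0.00012), from 328, 351, 382 and 380 CPM to 258, 264, 280 and 259 CPM. STIP1 fell by 0.45 (SE 0.07, adjusted p = 0.000147), from 437, 427, 465 and 452 CPM to 302, 339, 352 and 333 CPM.

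HSPA4L moved against them, with 82, 89.1, 69.8 and 80.3 CPM in RKO non-LRCs and 102, 101, 113 and 117 CPM in LRCs. It rose by 0.41 (SE 0.08, adjusted p = 0.000763) without overlap. DNAJB4 had 17.7, 17.9, 16.5 and 18.7 CPM against 23.8, 25.6, 25.9 and 22.7 CPM in LRCs, a rise of 0.44 (SE 0.09, adjusted p = 0.00093). HSPE1 had 118, 116, 143 and 137 CPM in non-LRCs and 78, 105, 94.4 and 96.4 CPM in LRCs, and fell by 0.48 (SE 0.10, adjusted p = 0.000961). DNAJB4 and HSPE1 were singled out after their values were seen. HSPH1 overlapped, with 88.7, 93.2, 88.8 and 88.6 CPM in non-LRCs and 79, 102, 93.9 and 99.3 CPM in LRCs. In the same libraries 8 of 10 proliferation markers fell in LRCs (summed level 770 to 1360 CPM, against 1590 to 1770), the mitochondrially encoded share was 7.01 to 10.5% against 4.47 to 6.57%, and 9 of 9 immediate early genes differed (6 higher, 3 lower). The summed leukocyte markers, nearly all CD68, were 1190 to 1450 CPM in LRCs against 958 to 1070, and the 1 that could be tested was higher by 0.30. Of the 6 epithelial markers that could be tested, 2 were higher, with a sum of 260.0 to 305 CPM against 210.0 to 237. The part of these in the result was not tested.

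In sorted DLD1, 11 of the 32 genes differed (34.4%, against 14.6% of genes tested), 3 higher in LRCs (6.67% of all genes) and 8 lower (7.89%). HSPE1 fell by 0.35 (SE 0.05, adjusted p = 0.00223), from 85.5, 81.8, 87.1 and 84.9 CPM in non-LRCs to 70.7, 62.6, 66.1 and 65.2 CPM in LRCs. HSPD1 fell by 0.28 (SE 0.05, adjusted p = 0.00411), from 795, 783, 812 and 786 CPM to 651, 649, 640 and 663 CPM. Both genes separated the populations fully, as did HSPA9, the other mitochondrial gene, which was not called (-0.10, adjusted p = 0.183). CCT5 fell by 0.27 (SE 0.05, adjusted p = 0.00543), from 293, 275, 294 and 287 CPM to 249, 229, 231 and 236 CPM, and CCT2 fell by 0.27 (SE 0.06, adjusted p = 0.0109). CCT4, CCT8, HSPA4L and PTGES3, the p23 co-chaperone of HSP90, also fell, by 0.17 to 0.30 on the log2 scale.

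Of the genes that rose in DLD1 LRCs, HSPB1 had 351, 341, 328 and 343 CPM in non-LRCs and 422, 409, 452 and 429 CPM in LRCs, a rise of 0.34 (SE 0.05, adjusted p = 0.00228). HSPA1B, the stress-inducible HSP70, had 39, 46.4, 36.2 and 37.9 CPM in non-LRCs and 55, 59.6, 50.7 and 52.2 CPM in LRCs, a rise of 0.46 (SE 0.08, adjusted p = 0.00584). The sum of HSPA1A and HSPA1B rose by 0.45 (adjusted p = 0.00581). DNAJB1 rose as well, by 0.25 (adjusted p = 0.0118). HSPA4L (17.7, 18.6, 16.9 and 18.5 CPM in non-LRCs, 13.3, 15.2, 15.3 and 14.2 CPM in LRCs) and HSPB1 had the opposite sign in RKO, where HSPB1 fell by 0.46. The effect differed between lines for HSPA4L (adjusted p = 0.00103) and not past the threshold for HSPB1 (adjusted p = 0.0592). In DLD1, same-numbered libraries deviated together, and a fit with the replicate number as a block called 19 of the genes, 6 higher and 13 lower, against 33.8% of genes tested. DNAJB4 then passed (0.33, adjusted p = 0.00841). Without DLD1 non-LRC replicate 1, 7 genes were called, against 7.13% of genes tested. Of 10 proliferation markers, 8 fell in LRCs (984 to 1450 CPM in sum, against 1640 to 1800), and their part in the result was not tested.

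In HCT15, 1 gene passed, against 0.977% of genes tested (0.728% higher and 0.25% lower). HSPH1 had 96.9, 117, 113 and 129 CPM in non-LRCs and 152, 168, 156 and 148 CPM in LRCs, without overlap, and rose by 0.46 (SE 0.09, adjusted p = 0.0474). The call was lost when any 1 of the 8 libraries was left out. Same-numbered HCT15 libraries deviated together, and with the replicate block 5 genes passed against 21.3% of genes tested. These were HSPH1 (0.47, adjusted p = 0.00018), BAG3 (0.33, adjusted p = 0.00243), HSPA9 (0.33, adjusted p = 0.0042) and DNAJA1 (0.20, adjusted p = 0.0405), which were higher in LRCs, and HSPA1B (-0.25, adjusted p = 0.0124), which was lower. HSPA9 had 533, 560, 431 and 434 CPM in non-LRCs and 698, 765, 534 and 469 CPM in LRCs, and replicates 1 and 2 were higher than replicates 3 and 4 in both populations. The TRiC and HSP90 groups had no called gene in HCT15 by either fit.

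In SW48 no chaperone gene passed in edgeR's quasi-likelihood test, against 0.796% of genes tested (0.72% higher and 0.0758% lower). DESeq2 called 1, against 2.74% of genes tested. With the replicate block, applicable because same-numbered SW48 libraries deviated together, 3 genes rose against 9.69% of genes tested. DNAJB4 had 6.7, 8.99, 5.11 and 6.69 CPM in non-LRCs and 9.55, 12.3, 10 and 9.84 CPM in LRCs (0.61, adjusted p = 0.0156). HSPA4L had 54, 75.3, 70.4 and 61.4 CPM in non-LRCs and 78.4, 84.1, 86.2 and 82.9 CPM in LRCs (0.35, adjusted p = 0.0158). HSP90AA1 had 2850, 3120, 2850 and 2550 CPM in non-LRCs and 3410, 3530, 3450 and 3420 CPM in LRCs (0.28, adjusted p = 0.0223). All 3 separated the populations. The mitochondrially encoded share did so too, at 13.8 to 14.2% in SW48 LRCs against 9.66 to 11.3%, and all 10 proliferation markers lay below 0 (median log2 difference -0.456) with none called. Their part in the result was not tested.

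In SW948 no chaperone gene passed in edgeR's quasi-likelihood test and neither did any other gene, 0% of those tested. DESeq2 called 1, against 1.78% of genes tested. The 5 smallest p-values of edgeR's test, none passing, were those of DNAJB4 (0.58, adjusted p = 0.146), DNAJA1 (0.29, 0.185), HSPH1 (0.21, 0.193), CHORDC1 (0.28, 0.227) and DNAJB6 (0.21, 0.245). HSPH1 had 405, 409, 412 and 388 CPM in SW948 non-LRCs and 470, 491, 473 and 416 CPM in LRCs, which did not overlap. Without SW948 LRC replicate 4, 5 chaperone genes passed, as did 14.5% of genes tested. In HT55 none passed in edgeR's test, where 0% of all genes tested were called, with differences of -0.41 to 0.33. DESeq2 called none there, against 0.276% of genes tested.

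Other genes of the same pathways were taken from lists of their families and partners. Of 69 genes found, 63 could be tested over the 6 lines and 21 passed (33.3%, against 22.9% of all genes), 8 higher (12.2% of all genes) and 13 lower (10.7%) in LRCs, and the same shares of all genes stand behind each list. The other cytosolic HSP70 genes counted 2 higher and 3 lower of 13, the other J proteins 3 higher and 2 lower of 14, and the other HSP90 cofactors 1 higher and 3 lower of 10. The remaining TRiC subunit with prefoldin counted 1 higher and 1 lower of 9, the other mitochondrial chaperones and proteases 3 lower of 12, the small heat shock proteins 1 higher of 1 tested, and the HSF family 1 lower of 4. DNAJB2, a J protein that sorts clients to the proteasome, rose by 0.34 (SE 0.05, adjusted p = 1.3e-05), and TRAP1, the mitochondrial HSP90, fell by 0.25 (SE 0.04, adjusted p = 1.4e-05). HSPB8, the small heat shock protein that binds BAG3, was higher in LRCs by 2.11, at a low level of 0 to 24 reads per sorted library. At that level it may have passed the count filter through LRC libraries alone. Its call, which is included in the counts above, therefore carries no weight.

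The unsorted libraries labelled DLD1 compared cells with and without the dye, and before and after spheroid growth. At day 1, 13 of the 32 genes were higher in CFSE-labeled than in unlabeled cells and none was lower (40.6%, against 21.8% of genes tested, with 9.73% higher and 12% lower). The median over the 32 genes was 0.364, against -0.011 over all genes. The genes that rose included HSPA1B, HSPH1, BAG3, the J proteins DNAJA1, DNAJA2 and DNAJB1, HSP90AB1, the co-chaperones AHSA1, STIP1, CHORDC1 and FKBP4, and the TRiC genes TCP1 and CCT5. Of the 6 genes with a 3-unit element, 2 were among them, as were 4 of the 9 with a 2-unit match only and 6 of the 15 with none. The search took exact letters in a short window, so altered or more distant elements were missed. CCT5, whose outer sequence was not searched, counts among those with none.

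HSPH1 had 395, 392, 358 and 369 CPM in CFSE-labeled cells at day 1 and 224, 237, 238 and 156 CPM in unlabeled cells. It rose by 0.85 (SE 0.16, adjusted p = 0.00279) without overlap, and the lowest unlabeled value was that of replicate 4. AHSA1, which stimulates the ATPase of HSP90, had 206, 228, 196 and 202 CPM against 136, 146, 134 and 107 CPM and rose by 0.70 (SE 0.13, adjusted p = 0.00346). BAG3 had 167, 180, 106 and 97.6 CPM against 81.4, 88.8, 68.8 and 70.2 CPM and rose by 0.86 (SE 0.17, adjusted p = 0.00405). In BAG3 the first 2 replicates with dye stood well above the other 2. STIP1 rose by 0.57 (SE 0.12, adjusted p = 0.00484), from 344, 352, 286 and 273 CPM to 447, 516, 440 and 431 CPM. DNAJA1 rose by 0.79 (SE 0.18, adjusted p = 0.00632), from 201, 206, 185 and 153 CPM to 367, 386, 251 and 259 CPM. TCP1 rose by 0.60 (SE 0.14, adjusted p = 0.00863), from 339, 351, 332 and 278 CPM to 447, 484, 479 and 523 CPM.

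The sum of HSPA1A and HSPA1B had 267, 223, 108 and 110 CPM with dye at day 1 and 97.3, 95.8, 70.9 and 102 CPM without it, a rise of 0.98 (SE 0.24, adjusted p = 0.00932). Replicates 1 and 2 reached more than 200 CPM, and replicates 3 and 4 lay just above the highest unlabeled value. HSF1 RNA did not follow, with 77.9, 85.5, 86.8 and 83.9 CPM with dye against 85, 85.8, 72.7 and 76.6 CPM. An RNA level does not measure the activity of the HSF1 protein, which was not tested. HSPA6, a strictly inducible HSP70 outside the 32 genes and singled out after its values were seen, had 135, 111, 10.5 and 6.43 CPM with dye and 1.55, 1.12, 0.468 and 0.265 CPM without (log2 6.30, adjusted p = 0.000604). The immediate early genes moved too, with 6 of 9 higher with dye and a summed level of 772 to 4370 CPM against 418 to 1230, and their part in the result was not tested.

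**Figure D4:**
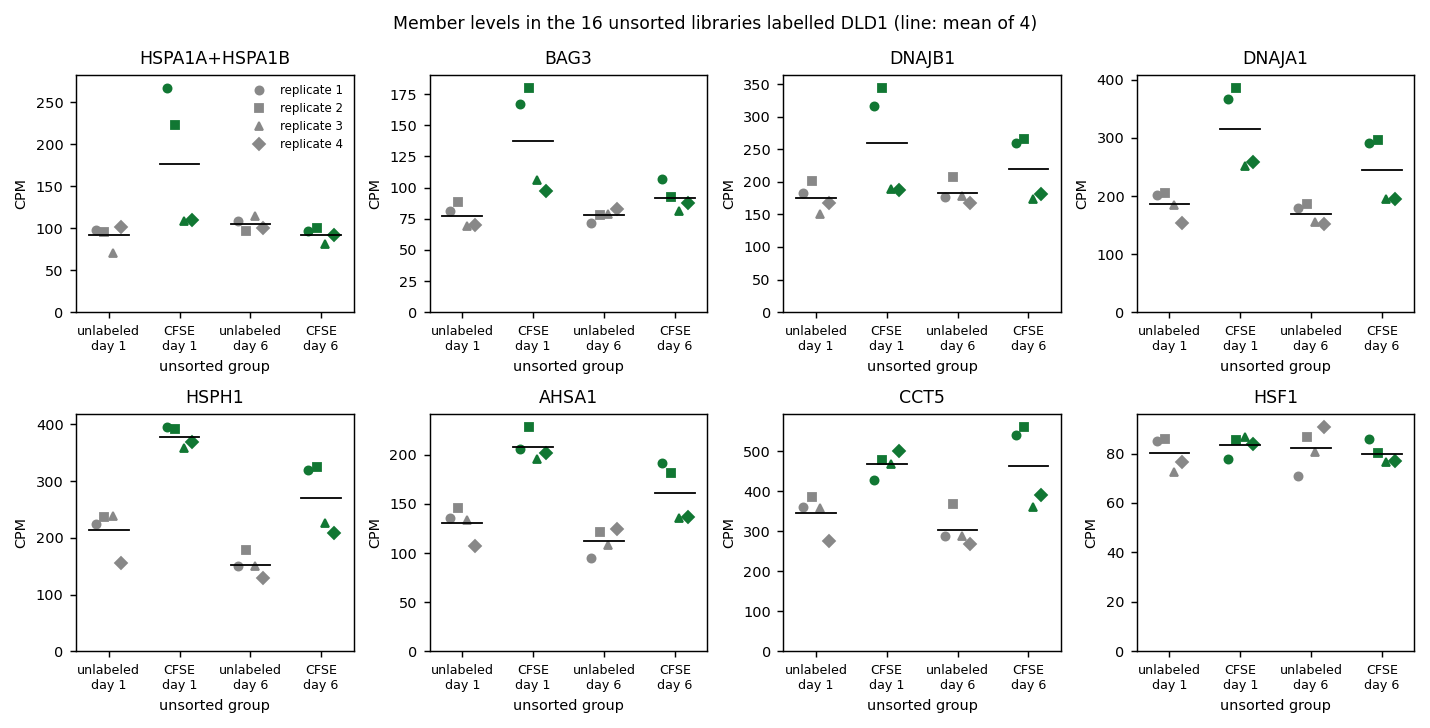
CPM of HSPA1A plus HSPA1B, of BAG3, DNAJB1, DNAJA1, HSPH1, AHSA1 and CCT5, and of HSF1 in the 16 unsorted libraries labelled DLD1, by dye and day, with a marker for each replicate number and a bar at the mean of 4. With dye at day 1, replicates 1 and 2 were above replicates 3 and 4 for HSPA1A plus HSPA1B (267 and 223 against 108 and 110 CPM), and HSF1 stayed between 70.8 and 90.6 CPM in all groups.

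Because the replicates fell into pairs, the dye was also compared within them, a division made after seeing the data. In replicates 1 and 2, 14 genes rose and 3 fell, against 48.8% of genes tested, with HSPA1B at 1.32 and BAG3 at 0.99. The 3 that fell were HSPA4L (-0.37), HSPD1 (-0.30) and HSPE1 (-0.53). In replicates 3 and 4, 15 genes rose and none fell, against 4.86% of genes tested. There HSPA1B differed by 0.38 (adjusted p = 0.17), BAG3 rose by 0.59, and HSPD1 and HSPE1 differed by 0.53 and 0.54 (adjusted p = 0.136 and 0.0994). Without unlabeled day 1 replicate 4, a fit added later that leaves 1 unlabeled library there and takes its spread from the other groups, 19 genes rose against 9.88% of genes tested. HSPA1B then passed (0.65, adjusted p = 0.00456), and HSPD1 and HSPE1 differed by 0.22 and 0.27 (adjusted p = 0.14 and 0.0808). HSPD1 had 646, 682, 862 and 921 CPM with dye at day 1, against 773, 825, 776 and 487 CPM without. HSPE1 had 76.4, 79.2, 129 and 137 CPM with dye at day 1, against 113, 107, 112 and 75.3 CPM without. In both genes the lowest unlabeled value was that of replicate 4. Over all replicates, without unlabeled day 1 replicate 4, 8 of the 13 genes remained called against 18% of genes tested, namely HSPH1, AHSA1, BAG3, HSPA1B, STIP1, DNAJA1, HSP90AB1 and TCP1.

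**Figure D5:**
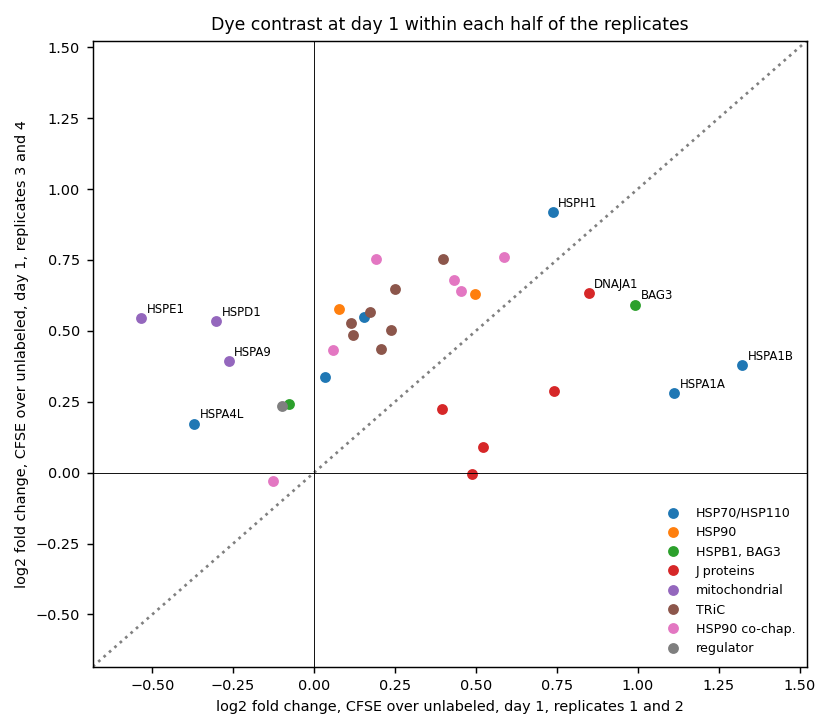
Log2 fold change of CFSE-labeled over unlabeled libraries at day 1 in replicates 1 and 2 (horizontal) and in replicates 3 and 4 (vertical) for 32 chaperone genes coloured by role, with equal change on the dotted line. HSPA1B lay far to the right (1.32 against 0.38), and HSPD1 and HSPE1 lay below 0 in the first pair and at 0.53 and 0.54 in the second, or 0.22 and 0.27 there without unlabeled day 1 replicate 4.

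At day 6 the dye contrast held fewer genes, 6 of 32 higher and none lower (18.8%, against 5.13% of genes tested, with 3.11% higher and 2.03% lower). HSPH1 had 319, 325, 227 and 209 CPM with dye and 150, 178, 150 and 130 CPM without, a rise of 0.82 (SE 0.16, adjusted p = 0.0169). CCT5 had 541, 560, 360 and 390 CPM against 289, 368, 289 and 269 CPM and rose by 0.60 (adjusted p = 0.0313). HSP90AA1 had 3490, 3570, 2530 and 2570 CPM against 2120, 2320, 1920 and 1770 CPM and rose by 0.57 (adjusted p = 0.0338). Replicates 1 and 2 were again the highest with dye in all 3 genes. AHSA1 (0.51, adjusted p = 0.0393), HSPA9 (0.47, adjusted p = 0.048) and CHORDC1 (0.56, adjusted p = 0.0497) rose as well. None was called without CFSE day 6 replicate 1 or 2 or without unlabeled day 6 replicate 1 or 4, fits whose shares of all genes are not given. The count was 1 without unlabeled day 6 replicate 3 (0.844% of genes tested) and 3 without unlabeled day 1 replicate 1 (3.99%). It was 11 without unlabeled day 1 replicate 4 (13.3% of genes tested). Count and share moved together, so the count does not measure the chaperone genes alone. DESeq2 called 12 (10.5%), and the replicate block called 13 (10.4%). The 2 dye contrasts come from 1 fit with a shared spread, and 9 of 10 proliferation markers were also higher with dye at day 6 (3630 to 4020 CPM in sum, against 1730 to 2540), whose part in the result was not tested.

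Between day 1 and day 6, 7 of the 32 genes fell in CFSE-labeled cells and none rose (21.9%, against 39.3% of genes tested, with 20.2% higher and 19.1% lower). HSPA1B fell by 0.98 (SE 0.24, adjusted p = 0.00456), and the sum of HSPA1A and HSPA1B reached 96.6, 99.9, 81.7 and 91.5 CPM at day 6. BAG3 fell by 0.63 (SE 0.17, adjusted p = 0.00981) to 107, 92.3, 81.1 and 87.4 CPM. CHORDC1, HSPH1, CDC37 and AHSA1 fell by 0.37 to 0.54 on the log2 scale, and HSPA1A fell with its copy (adjusted p = 0.0138). Without CFSE day 6 replicate 4, 4 genes were called, against 31.7% of genes tested. These contrasts share the day 1 dye libraries with the dye contrast at day 1. All 9 immediate early genes fell between the days, to 442 to 609 CPM in sum, and their part in the result was not tested.

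In unlabeled cells 3 genes differed between the days (9.38%, against 25.5% of genes tested, with 12.4% higher and 13.1% lower). HSPB1 rose by 0.51 (SE 0.13, adjusted p = 0.0151), from 207, 223, 156 and 189 CPM at day 1 to 306, 313, 234 and 256 CPM at day 6. CHORDC1, a zinc-binding partner of HSP90, fell by 0.53 (SE 0.16, adjusted p = 0.0247), from 48.6, 47.6, 47.3 and 31.8 CPM to 33.7, 33.9, 26.8 and 26.8 CPM. HSPH1 fell by 0.50 (SE 0.16, adjusted p = 0.0318). In CHORDC1 and HSPH1 unlabeled day 1 replicate 4 lay among the day 6 values, and without it 7 genes were called, 2 higher and 5 lower, against 42.1% of genes tested. Without unlabeled day 1 replicate 3 none was called (8.42% of genes tested), and 1 was called without unlabeled day 1 replicate 1 or 2 or unlabeled day 6 replicate 1 or 3 (6.68 to 16.5%). The sum of HSPA1A and HSPA1B differed by 0.19 (adjusted p = 0.555). In edgeR's quasi-likelihood test the change with time differed by dye for none of the 32 genes, while DESeq2 called 1. The share of all genes tested was 0.999% in edgeR's test (0.847% higher and 0.152% lower). HSPA1B had the largest such difference, -1.19 (adjusted p = 0.0892). Without unlabeled day 1 replicate 4 it passed (-1.19, adjusted p = 0.0485) and no other chaperone gene did, against 6.09% of genes tested.

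Sorted and unsorted cells differed for most chaperone genes, but sorting, experiment and, by expression, cell line differ together between them and cannot be told apart. Against unsorted CFSE-labeled day 6 libraries, 26 genes differed in sorted DLD1 non-LRCs, 2 higher and 24 lower (66.5% of genes tested, with 33.6% higher and 33% lower). In sorted DLD1 LRCs 27 differed, 2 higher and 25 lower (70.3% of genes tested, with 35.5% higher and 34.8% lower). FKBP4 was lower by -1.50 and CCT3 by -1.44 in non-LRCs, and HSPB1 was higher by 0.51. HSPA1B was lower by -1.11 in sorted DLD1 non-LRCs. Against the sorted HCT15 libraries, which the unsorted ones resembled most, a comparison added after seeing the data, HSPA1B differed by 0.16 and did not pass, while 25 genes were lower and 1 was higher in non-LRCs (45.4% of genes tested) and 22 were lower and 1 was higher in LRCs (42.3%). HSPH1 (-1.28), HSPE1 (-1.05), HSPD1 (-0.92) and CCT5 (-0.89) were among those lower in HCT15 non-LRCs.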

How the data were processed

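RNA from 64 libraries was sequenced as 50-base single-end reads. The deposited files hold raw counts per Ensembl gene, which the authors made by aligning to hg19; per the labels, TopHat, HTSeq and DESeq were named, without versions, and the gene annotation and strand setting are not given in the sources used here. Lines that name no gene (no-feature reads, 5.19 to 14.8%) were left out.

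Symbols and GRCh37 positions came from GENCODE 44 lifted to GRCh37, where 39260 of 54127 genes had a symbol. A gene entered a fit if 4 or more of its libraries held 10 or more counts, and was tested with edgeR 4.0.16 (R 4.3.3, TMM, quasi-likelihood, two-sided, Benjamini-Hochberg over all genes tested, threshold 0.05). All 32 genes passed the count filter in every comparison. SE is the log2 fold change divided by the square root of F. Fold changes used a prior count of 2, and 0.5 moved none by more than 0.0107. CPM are scaled by TMM factors over all 64 libraries. In every library 29 of the genes held 100 or more reads; HSPA1A, HSPA4L and DNAJB4 fell to 7, 7 and 79, where counting error is not small. No interval was computed. The 6-line fit had line as a covariate, single lines and the unsorted groups were fitted alone, and the differing of lines was an F test of the interaction.

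Same-numbered libraries deviated together in HT55 (r = 0.221 to 0.512), SW48 (0.187 to 0.611), DLD1 (0.255 to 0.504) and HCT15 (0.332 to 0.56), but not in SW948 (-0.0135 to 0.229), RKO (-0.0909 to 0.009) or the unsorted groups (-0.273 to 0.503). The labels give no source for the numbers. No 2 libraries were identical.

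Alternatives were DESeq2 1.42.0, other scaling, other count filters, a replicate block, 1 fit of 48 libraries and leaving out each library, replicate number or line. The genes and lists were chosen with earlier results of these data known. Every gene of the 32 is given over the 6 lines, and in other comparisons up to 6 called genes with the smallest p.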

Additional observations from a re-analysis of the deposited data

Results flagged for a closer look

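In 9 of 114 groups of 4 libraries whose levels were examined, the lowest or highest library stood apart by Dixon's test at the 95% level, which chance gives in about 1 group in 20. Of these, 4 were the library labelled unlabeled day 1 replicate 4, the lowest of its group for HSPH1 (156 CPM), CHORDC1 (31.8 CPM), HSPA9 (491 CPM) and HSPE1 (75.3 CPM). The others were CCT2 in RKO LRC replicate 1 (lowest, 357 CPM), CCT7 in RKO LRC replicate 4 (lowest, 423 CPM) and HSPH1 in RKO non-LRC replicate 2 (highest, 93.2 CPM). DNAJB1 in DLD1 LRC replicate 1 (179 CPM) and DNAJB4 in SW48 LRC replicate 2 (12.3 CPM) were the highest of their groups.

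The difference between LRCs and non-LRCs differed between lines, by an interaction test, for 13 of the 32 chaperone genes, against 14.3% of all genes tested. When RKO was left out it did for 1 of them, against 1.02% of all genes tested.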

How the results depend on the processing

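Counts of called chaperone genes stayed within 1.5 times in 260 recomputed values and moved further in 65. A count can move because the share of all genes called moves, so these counts do not measure the chaperone genes alone. Leaving out 1 library or replicate number gave 6 to 9 genes over 6 lines (8 with all libraries), with 13.7 to 18% of all genes. It gave 0 in HT55 (0), with 0 to 3.92%, and 0 in SW48 (0), with 0.161 to 1.39%. In SW948 it gave 0 to 5 (0), with 0 to 14.5%, and in RKO 23 to 25 (25), with 34 to 40.5%. In DLD1 it gave 7 to 11 (11), with 7.13 to 13.2%, and in HCT15 0 (1), with 0 to 1.68%. For the differing of lines it gave 4 to 14 (13), with 3.2 to 17.4%. In the unsorted libraries it gave 0 to 7 for unlabeled cells over time (3), 4 to 9 for CFSE-labeled cells over time (7), 8 to 15 for the dye at day 1 (13), 0 to 11 at day 6 (6) and 0 to 1 for dye by day (0). Leaving out unlabeled day 1 replicate 4 moved the share of all genes too. Over time it went from 25.5 to 42.1% in unlabeled and from 39.3 to 43.7% in CFSE-labeled cells. For the dye it went from 21.8 to 18% at day 1 and from 5.13 to 13.3% at day 6. For dye by day it went from 0.999 to 6.09%. Shares for the other unsorted fits are not all given. DESeq2 called 1 gene in SW948 (1.78% of all genes), 1 in SW48 (2.74%) and 2 in HCT15 (3.79%). It called 12 for the dye at day 6 and 1 for dye by day. Without a count filter 2 were called in SW948 (3.6%) and 1 for dye by day, and without TMM 0 in HCT15 (1.01%). A single fit of 48 libraries called 1 in SW948 (2.34%), 3 in SW48 (2.93%), 5 in DLD1 (3.89%) and 2 in HCT15 (4.2%). Without RKO 1 gene differed between lines (1.02%).

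With the replicate number as a block, 1 gene was called in SW948 (3.66% of all genes), 3 in SW48 (9.69%) and 19 in DLD1 (33.8%). The block called 5 in HCT15 (21.3%), 24 for the differing of lines (33.6%) and 13 for the dye at day 6. Over 6 lines HSPH1 lost its call with the block (adjusted p = 0.0531) and HSPA1B (0.0426), BAG3 (0.0463) and DNAJA1 (0.0263) gained one; the other 82 of 86 named values kept theirs.

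After seeing the data, replicates 1 and 2 and replicates 3 and 4 were fitted apart. Replicates 1 and 2 gave 7 genes in DLD1 (11.8% of all genes) and 5 in HCT15 (9.92%). They gave 17 for unlabeled (57.8%) and 21 for CFSE-labeled cells over time (55.9%). For the dye at day 6 they gave 22 (31.2%) and for dye by day 11 (34.6%). Replicates 3 and 4 gave 0 for unlabeled cells over time (0%) and 0 for the dye at day 6 (0.0144%). Without unlabeled day 1 replicate 4, replicates 3 and 4 hold 1 unlabeled day 1 library. The median over the chaperone genes was then -0.188 for unlabeled cells over time and -0.123 for dye by day. The pair as a term gave 18 in DLD1 (31.5%), 4 in HCT15 (19.1%) and 21 for the dye at day 1 (29.6%). It gave 18 for the dye at day 6 (13.5%) and 1 for dye by day (3.71%). The cause was not tested.

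Of the named values, 1627 kept their side of the threshold, 130 lost and 30 gained a call. Of the 13 that turned sign, those over 6 lines were not called there: HSPA8 (0.005), DNAJA2 (0.014), TCP1 (0.024), STIP1 (0.003), HSPB1 (0.057) and CHORDC1 (0.061) without RKO, HSPB1 without replicate 2 (0.019, from -0.064 over the replicate numbers), SW48 (0.008) or HCT15 (0.007), HSP90AA1 without SW48 (-0.014), and CHORDC1 without HT55 (0.02) or with 10 counts in every library (0). The other, HSPA1B in sorted DLD1 non-LRCs against unsorted cells, was called (-1.11, adjusted p = 5.44e-08 in edgeR's test). It turned to 0.159 with the HCT15 libraries.

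Without TMM the share of called genes that were higher at day 6 went from 48.5 to 22.9% in unlabeled and from 51.4 to 36.1% in CFSE-labeled cells.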
